A study of Mus musculus with 75 samples.

Results

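The 7 mouse genes for subunits of the NMDA receptor (Grin1, Grin2a, Grin2b, Grin2c, Grin2d, Grin3a and Grin3b) were read by symbol from a table of 55401 gene identifiers, and all 7 were found and tested in every comparison. Nuclear RNA had been sequenced in 75 libraries, each of fluorescence-sorted nuclei from the nucleus accumbens, a forebrain region of reward learning, of male mice. All mice carried LSL-eGFP::L10a, a green fluorescent ribosomal protein fusion that is made only after Cre recombination, with either D1-Cre or D2-Cre, which drive Cre from the genes of the dopamine D1 or D2 receptor and so mark the 2 main classes of medium spiny neurons. Mice received cocaine (C, 20 mg/kg, intraperitoneal) or saline (S) daily for 10 days, spent 30 days in the home cage, and were killed 1 h after a last injection of cocaine or saline. Groups are named by line, repeated injection and last injection: D1_CC (n = 10), D1_SC (n = 9), D1_CS (n = 8) and D1_SS (n = 10), and D2_CC (n = 10), D2_SC (n = 9), D2_CS (n = 10) and D2_SS (n = 9). The labels do not say whether a library came from 1 mouse or from pooled mice, so p-values measure only the spread between libraries.

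The NMDA receptor is a glutamate-gated cation channel that opens when glutamate and a co-agonist, glycine or D-serine, bind while depolarization relieves a magnesium block. It is a tetramer that needs GluN1, the product of Grin1, together with GluN2 subunits (Grin2a to Grin2d), which bind glutamate and set the channel's kinetics, or the less common glycine-binding GluN3 subunits (Grin3a and Grin3b). In the striatum GluN2A and GluN2B are the main partners of GluN1, and calcium entering through the channel takes part in the synaptic plasticity that follows cocaine.

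The family shares one of its most conserved stretches, the end of the third membrane segment, which lines the channel gate. The 36 coding bases that begin this motif are shown for 4 members, because they show how far these differ where they are most alike. They were found in transcripts of GENCODE M21 (GRCm38). Capitals mark bases that differ from Grin1.
Grin1: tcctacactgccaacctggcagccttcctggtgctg
Grin2c: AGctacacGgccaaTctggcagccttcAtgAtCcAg
Grin3a: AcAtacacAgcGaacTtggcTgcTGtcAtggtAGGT
Grin3b: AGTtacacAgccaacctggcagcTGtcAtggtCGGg
Of the 36 bases, 8 differed from Grin1 in Grin2c, 10 in Grin3b and 13 in Grin3a. Over whole transcripts, the longest run of identical bases between any 2 members was 13 to 34 bases in the 21 pairs. In Grin1 the stretch lies in exon 15 of 21 at chr2:25297190-25297225, and in Grin2c in exon 9 of 13 at chr11:115253740-115253775, both on the minus strand.

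The genes differ widely in length, which matters because nuclear reads fall on introns as well as exons. In mm10 and GENCODE M21, Grin2b (chr6:135713233-136173511) spans 460.3 kb, Grin2a (chr16:9567898-9995560) 427.7 kb and Grin3a (chr4:49661611-49845744) 184.1 kb. Grin2d (chr7:45831883-45878378) spans 46.5 kb, Grin1 (chr2:25291181-25319187) 28.0 kb, Grin2c (chr11:115249169-115267243) 18.1 kb and Grin3b (chr10:79970715-79977190) 6.5 kb. Some of these spans overlap a gene on the opposite strand: Tmem259 covers 34.6% of Grin3b, the antisense RNA Grin1os 27.5% of Grin1, and Kdelr1 12.1% of Grin2d. The strand setting of the counting is not given in the sources used here, so reads in these overlaps cannot be assigned with certainty.

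The libraries differed in ways that bear on every level below. Total counts ran from 19825 to 34870414 (median 14893119), and 4 libraries held under 1000000. Olfactory and vomeronasal receptor genes (1738 genes, silent in brain) also carried reads. Spread evenly over all genes, reads at that density would make up 4.03% to 71.5% of the counts of libraries over 1000000 counts. This background share was 46.0% ± 21.7 in D1_CC, 23.4% ± 18.0 in D1_SC, 57.1% ± 19.6 in D1_CS and 46.2% ± 11.9 in D1_SS, and 41.0% ± 20.1 in D2_CC, 34.5% ± 20.2 in D2_SC, 35.0% ± 20.3 in D2_CS and 44.2% ± 17.3 in D2_SS (mean ± SD). A quality rule on depth, detected genes, receptor ratio and correlation failed 17 libraries, none of them in an SS group, while the other line's receptor gene exceeded the line's own in 16 of 37 D1 libraries and in 0 of the 35 D2 libraries over 1000000 counts. All 8 medium spiny neuron markers were found in each of the 71 libraries with over 1000000 counts.

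Grin1 was the densest member, followed by Grin2b and then Grin2a, and the medians of the other 4 lay at 1.27 to 1.68 times the background. Density here is counts per kilobase of gene span, divided by the density over the silent receptor genes of the same library. The median over 75 libraries was 13.0 times background for Grin1, 5.11 for Grin2b and 3.28 for Grin2a. It was 1.68 for Grin2d, 1.57 for Grin3a, 1.44 for Grin3b and 1.27 for Grin2c.

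In the 71 libraries with over 1000000 counts, Grin1 was the densest member in 70, Grin2b was denser than Grin2a in 71, and the order Grin1, Grin2b, Grin2a held in 66. Of the summed density of the 7 genes, Grin1 took a median of 46.2%, Grin2b 18.6% and Grin2a 12.8%. The obligatory subunit gene thus carried the highest density per kilobase, although its count was lower than those of the long Grin2a and Grin2b.

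Grin1 and Grin2b exceeded 2 times the background density in all 75 libraries and Grin2a in 73. Grin2d and Grin3b, which encode a slow GluN2 subunit and a GluN3 subunit, did so in 28 libraries each, and Grin3a and Grin2c, a GluN2 subunit best known from cerebellum, in 19 each. Density was also taken from counts pooled over the 71 libraries with over 1000000 counts. Of 1422 silent receptor genes of 1 kb or more, 100% had a pooled density below that of Grin1 and of Grin2b. For Grin2a the share was 99.9%. The corresponding share was 92.8% for Grin2d, 92.6% for Grin3b, 88.4% for Grin3a and 79.1% for Grin2c. In this pooled density these 4 genes thus lay within the range of silent genes. Single libraries differed. In the 58 libraries that passed the quality rule, density was at or under background in 18 for Grin2c, 9 for Grin3b, 2 for Grin2d and 0 for Grin3a. The highest values there were 7.89 times background for Grin2c, 10.1 for Grin3b, 8.21 for Grin2d and 6.41 for Grin3a.

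**Figure D1:**
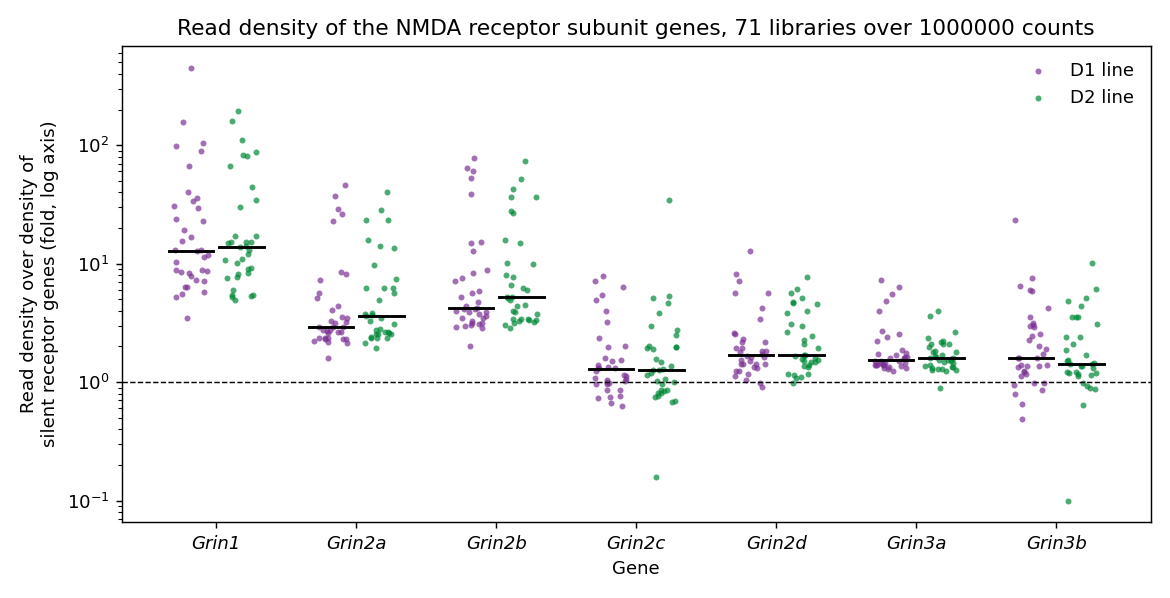
Read density of each NMDA receptor subunit gene over the density of silent receptor genes in the same library (fold, log axis) in the 71 libraries with over 1000000 counts, D1 line left of D2 line. Points are libraries, black bars the medians of each line and the dashed line the background. Grin1, Grin2b and Grin2a lie above the background in every library. The other 4 genes have medians of 1.27 to 1.68 times the background over all 75 libraries of both lines, with single libraries up to 34.3 times it.

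Levels were next compared across the 8 groups as counts per 1000000 of the library's total (CPM), which are not corrected for length or background. Grin1 averaged 187 ± 104 CPM in D1_CC, 140 ± 60.0 in D1_SC, 99.6 ± 26.6 in D1_CS and 143 ± 44.8 in D1_SS (SD). In the D2 line it averaged 120 ± 61.0 in D2_CC, 129 ± 45.5 in D2_SC, 168 ± 100.1 in D2_CS and 131 ± 41.4 in D2_SS. Ordered by mean, D1_CC was highest and D1_CS lowest, and every step between neighbouring groups was smaller than the SD of either.

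Grin2a averaged 484 ± 59.7 CPM in D1_CC, 537 ± 262 in D1_SC, 499.8 ± 109 in D1_CS and 512 ± 76.3 in D1_SS. It averaged 569 ± 85.4 in D2_CC, 624 ± 156 in D2_SC, 484 ± 138 in D2_CS and 511 ± 95.4 in D2_SS. The D1_SC libraries were the most spread, and no neighbouring groups in the order differed beyond their SD.

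Grin2b averaged 789 ± 85.5 CPM in D1_CC, 1024 ± 426 in D1_SC, 765 ± 256 in D1_CS and 782 ± 117 in D1_SS. It averaged 898 ± 207 in D2_CC, 943 ± 321 in D2_SC, 978 ± 355 in D2_CS and 810.1 ± 246 in D2_SS. D1_SC was highest and D1_CS lowest, again with steps smaller than the SD.

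The group means of the minor subunits lay between 20.0 (D2_CS) and 31.2 CPM (D2_CC) for Grin2d, between 74.9 (D1_SC) and 116 CPM (D1_CS) for Grin3a, and between 2.51 (D1_SC) and 5.76 CPM (D2_CS) for Grin3b. Neighbouring groups in these orders differed by less than the SD. Grin2c lay between 6.89 (D2_SC) and 9.12 CPM (D1_CS) in 7 groups and at 25.8 ± 51.4 CPM in D2_CS, where 1 library stood at 169 CPM.

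**Figure D2:**
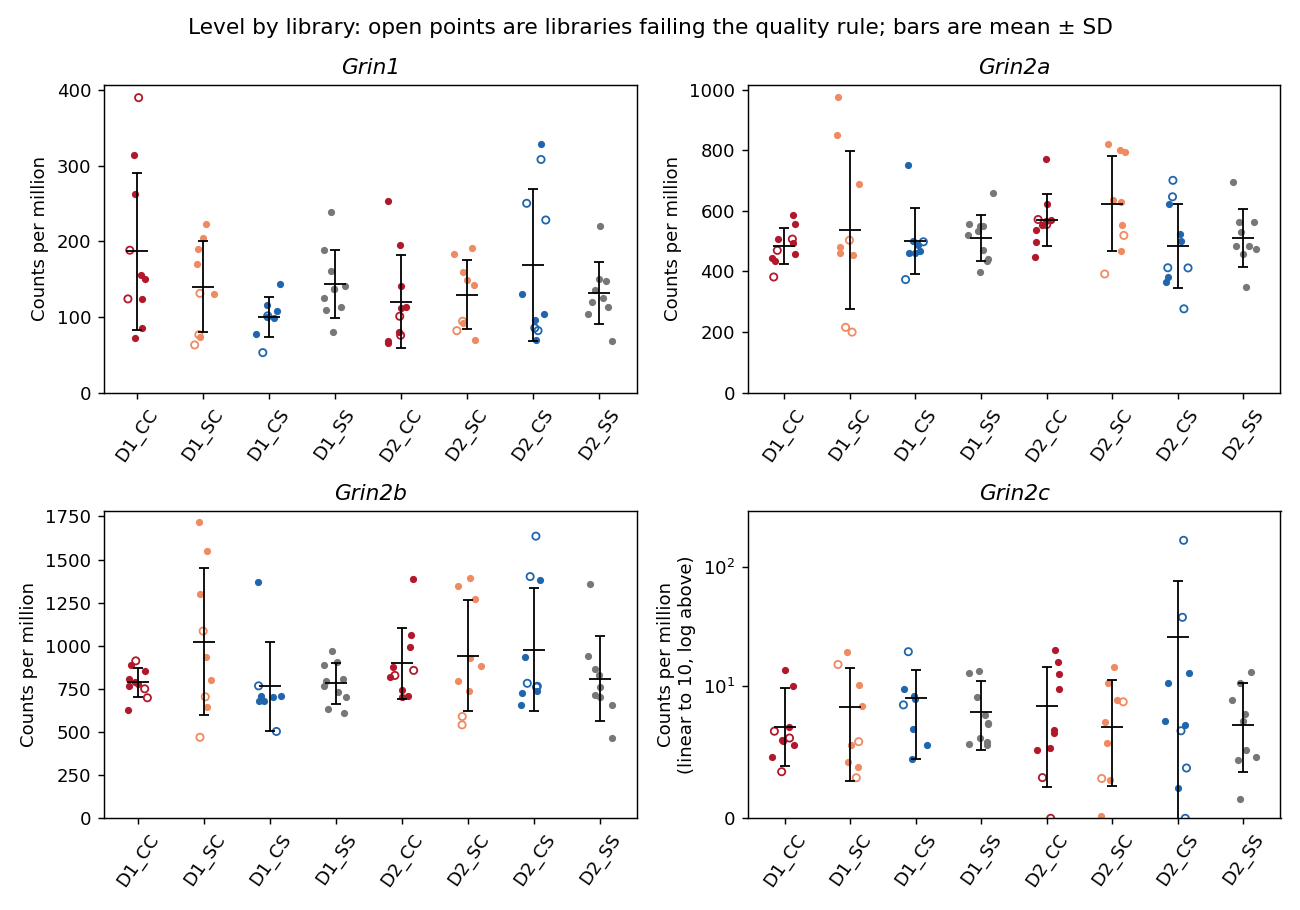
CPM of Grin1, Grin2a, Grin2b and Grin2c by group (each point a library, open where the library failed the quality rule; bars mean ± SD; the Grin2c axis is linear to 10 and logarithmic above, and its SD bar in D2_CS is clipped at 0). Grin2b spreads widest in D1_SC and D2_CS, and a single open point at 169 CPM lifts the mean of Grin2c in D2_CS.

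The first cocaine injection after repeated saline, SC against SS, asks what acute cocaine does within 1 h. In the D1 line Grin2b was higher in D1_SC. Its level ran from 469.7 over a median of 938 to 1721 CPM in D1_SC, against 609.6, 784 and 969 CPM in D1_SS. The groups overlapped: 4 of 9 D1_SC libraries lay above every D1_SS library and 1 lay below all of them.

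The fitted log2 change was 1.08 ± 0.30 (SE; n = 9 and 10; edgeR's quasi-likelihood test, adjusted p = 0.0162; higher than the D1_SS mean in 6 of 9). The log2 ratio of the mean CPM was only 0.39; the fit scales libraries by trimmed mean of M-values (TMM), which the CPM do not. Grin2b was the 1 member that passed, where 11.3% of the 37721 genes tested passed and 9.7% passed as higher in D1_SC. The 7 members had a median log2 change of 0.57, against -0.07 for all genes. With RLE scaling the median of all genes moved by -0.18 and Grin2b stood at 0.80 ± 0.21 (adjusted p = 0.016). Of the genes that passed, 85.6% were higher in D1_SC in the edgeR fit, 82.5% with RLE scaling, 59.6% with DESeq2 (3369 higher and 2282 lower) and 61.5% with limma.

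The other GluN2 genes did not pass: Grin2a had a log2 change of 0.77 ± 0.28 (adjusted p = 0.0619) and Grin2c 0.60 ± 0.25 (adjusted p = 0.0915). Grin1 had 0.57 ± 0.37 (adjusted p = 0.278), with means of 140 CPM in D1_SC and 143 CPM in D1_SS. Grin2d, Grin3a and Grin3b had 0.03, 0.05 and -0.08. So Grin1, Grin2a and Grin2b, the members clearly above background, had positive fitted changes, of which only that of Grin2b passed in the edgeR fit. A positive sign was not confined to them, as Grin2c, Grin2d and Grin3a had it too. For Grin2a the median was 481 CPM in D1_SC and 527 in D1_SS, with means of 537 and 512. Only 3 of 9 D1_SC libraries lay above its D1_SS mean.

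Background moved with this comparison. The density of Grin2b over background was 3.08 (lowest), 12.8 (median) and 77.7 times (highest) in D1_SC, against 3.51, 4.19 and 8.92 times in D1_SS. The highest Grin2b levels, 1721 CPM in D1_SC 2 and 1549.7 CPM in D1_SC 4, came from libraries with background shares of 8.10% and 5.67%. With the background subtracted Grin2b stood at 0.47 ± 0.23 (adjusted p = 0.295), and with the background share as a covariate at 0.25 ± 0.19 (adjusted p = 0.514), so the call was lost under both. Without the failing libraries Grin2b stood at 1.26 ± 0.33 (adjusted p = 0.0300) and Grin2a at 1.04 ± 0.29 (adjusted p = 0.0334), both past the threshold. The call of Grin2b was lost without D1_SC 2 (0.64, adjusted p = 0.167), D1_SC 4 (0.69, adjusted p = 0.155), D1_SC 9 (0.84, adjusted p = 0.0964) or D1_SS 3 (0.91, adjusted p = 0.0598).

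Cell type markers also differed in level between these groups. The summed level of the 8 medium spiny neuron markers ran from 2323 to 6566 CPM (median 3978) in D1_SC and from 2253 to 3865 (median 3103) in D1_SS. The 3 D1 neuron markers summed to a median of 172 (47.6 to 686) in D1_SC and 377 (46.1 to 709) in D1_SS, and Drd1 itself had medians of 61.2 and 136 CPM in these groups. Drd2 exceeded Drd1 in 6 of 9 D1_SC and 2 of 10 D1_SS libraries. The 4 D2 neuron markers summed to a median of 266 (111 to 515) in D1_SC and 323 (84.5 to 737) in D1_SS. Of these, Drd2 had medians of 84.0 CPM in D1_SC and 53.2 in D1_SS. Penk (86.5 and 231 CPM), Adora2a (18.3 and 24.1 CPM) and Gpr6 (4.16 and 12.9 CPM) had lower medians in D1_SC. The 6 interneuron markers summed to 95.2 to 216 (median 150) in D1_SC and 159.9 to 224 (median 187) in D1_SS. They did not move alike. Sst had medians of 5.21 CPM in D1_SC and 35.4 in D1_SS, Kcnc2 of 101.9 and 109.4, and Cort of 1.14 and 1.07. The 5 oligodendrocyte markers summed to 95.8 to 919 (median 268) in D1_SC and 133 to 243 (median 174) in D1_SS, and the 5 astrocyte markers to 34.9 to 238 (median 83.1) in D1_SC and 106 to 168 (median 133) in D1_SS. Among the 71 libraries with over 1000000 counts, no oligodendrocyte or astrocyte marker was at 0 in more than 1. The part of these markers in the result was not tested. In bulk nuclei, fewer nuclei of a type and less RNA per nucleus cannot be told apart.

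In the D2 line none of the 7 members passed in D2_SC against D2_SS, where 0.0% of 36090 genes passed. The smallest p was that of Grin2a, at 0.54 ± 0.26 (adjusted p = 0.939; 624 ± 156 CPM in D2_SC and 511 ± 95.4 in D2_SS; higher than the D2_SS mean in 7 of 9). At an unadjusted p under 0.05, 1 member and 1914 of 36090 genes passed. DESeq2 called 0 members and limma with library weights 1, where limma called 13.6% of all genes. The difference between the lines was tested itself: Grin2b, with the smallest p, had a D1 change larger than the D2 change by 0.56 ± 0.47 (adjusted p = 0.967), and 0 members passed, where 0.028% of 39250 genes did.

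The balance of Grin2a to Grin2b was read within each library as the log2 ratio of their densities, which needs no scaling between libraries. A ratio of these 2 subunits is a common description of GluN2 composition. Here it is one of nuclear reads over whole gene spans, introns included, and does not measure receptor protein. The ratio ran from -1.60 over a median of -0.81 to -0.40 in D1_SC, against -0.71, -0.51 and -0.32 in D1_SS. In words, 7 of 9 D1_SC libraries lay below every D1_SS library, so Grin2b exceeded Grin2a by more in D1_SC.

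The means were -0.88 ± 0.34 in D1_SC and -0.51 ± 0.12 in D1_SS (SD, n = 9 and 10), a difference of -0.38 (exact two-sided permutation p = 0.00149, adjusted p = 0.0105 over 14 comparisons). Between lines under the same treatment, D1_SC stood at -0.88 ± 0.34 and D2_SC at -0.46 ± 0.18 (SD, n = 9 each), a difference of -0.43 (exact p = 0.00144, adjusted p = 0.0105). In that comparison 8 of 9 D1_SC libraries lay below every D2_SC library.

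An even background pulls both densities towards each other, and the background share was 23.4% in D1_SC, 46.2% in D1_SS and 34.5% in D2_SC. With the background subtracted the differences were -0.38 (exact p = 0.00288, adjusted p = 0.0202) and -0.49 (exact p = 0.000617, adjusted p = 0.00864). Without the failing libraries they shrank to -0.20 (exact p = 0.0172, adjusted p = 0.241; n = 6 and 10) and -0.18 (exact p = 0.0408, adjusted p = 0.286; n = 6 and 7), and neither passed. The lowest ratio in D1_SC, -1.60, was that of D1_SC 1, a failing library.

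The other 12 comparisons of the ratio did not pass. D2_CS stood lowest of the D2 groups, at -0.89 ± 0.53 against -0.53 ± 0.16 in D2_SS, a difference of -0.36 (exact p = 0.0598, adjusted p = 0.139). D1_CC stood at -0.60 ± 0.25, D1_CS at -0.48 ± 0.14 and D2_CC at -0.53 ± 0.13. In the saline groups the lines lay close together, with -0.51 ± 0.12 in D1_SS and -0.53 ± 0.16 in D2_SS (exact p = 0.734, adjusted p = 0.790).

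**Figure D3:**
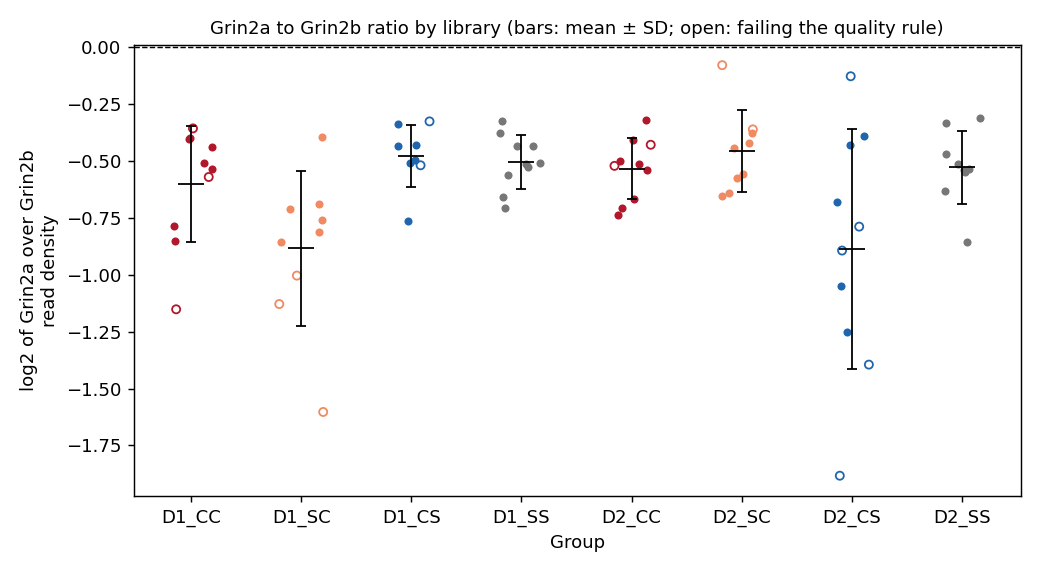
Log2 ratio of Grin2a to Grin2b read density by group (each point a library, open where it failed the quality rule; bars mean ± SD; the dashed line marks equal density). All points lie below 0, and the D1_SC points reach from -0.40 to -1.60, mostly below those of D1_SS.

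A cocaine challenge after repeated cocaine, CC against CS, asks how the challenge acts on a cocaine history. In the D1 line Grin1, the obligatory subunit gene, was higher in D1_CC. Its level ran from 71.6 over a median of 152 to 389.9 CPM in D1_CC, against 52.8, 101 and 143 CPM in D1_CS. The groups overlapped, with 6 of 10 D1_CC libraries above every D1_CS library.

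The fitted log2 change was 1.27 ± 0.40 (SE; n = 10 and 8; edgeR, adjusted p = 0.0391; higher than the D1_CS mean in 8 of 10), and the log2 ratio of mean CPM was 0.90. Grin1 was the 1 member that passed, where 8.31% of 37721 genes passed, nearly all of them higher in D1_CC (8.28%). The median log2 change was 0.07 over the 7 members and -0.09 over all genes. Grin3b had the next smallest p (0.63 ± 0.27, adjusted p = 0.156), and Grin2a and Grin2b stood at 0.07 ± 0.29 and 0.19 ± 0.31.

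The 3 highest Grin1 levels, 389.9 CPM in D1_CC 3, 315 in D1_CC 1 and 263 in D1_CC 7, came from the 3 D1_CC libraries with the lowest background shares, 4.03%, 16.5% and 30.5%. The call was lost with RLE scaling (0.94 ± 0.30, adjusted p = 0.0764; median of all genes moved by -0.16), with the background subtracted (0.70 ± 0.26, adjusted p = 0.174), with the background share as a covariate (0.52 ± 0.21, adjusted p = 0.460) and without the failing libraries (0.77 ± 0.42, adjusted p = 0.569). It was also lost in 9 of 18 fits that left out 1 library, those without D1_CC 1, 3 or 7 or without D1_CS 1, 2, 4, 6, 7 or 8. Without D1_CC 3 the log2 change of Grin1 was 0.87 (adjusted p = 0.254).

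None of the 4 D2 neuron markers was at 0 in any D1_CC or D1_CS library. Their sum stood at a median of 1026 CPM in D1_CC (186 to 2266) and 236 in D1_CS (125 to 985). Penk carried this sum, with medians of 768 CPM in D1_CC and 143 in D1_CS. Adora2a (62.9 and 22.6 CPM) and Gpr6 (40.3 and 6.41 CPM) also had higher medians in D1_CC, while Drd2 had medians of 60.0 and 71.4 CPM. The 3 D1 neuron markers stood at a median of 377 in D1_CC (109.9 to 1423) and 189.6 in D1_CS (85.6 to 295). The medium spiny neuron markers stood at a median of 3580 in D1_CC (2099 to 6290) and 2403 in D1_CS (1790 to 6407). Their part in the result was not tested.

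In the D2 line no member passed in D2_CC against D2_CS, where 0.252% of 36090 genes passed. Grin2c had the smallest p (-1.93 ± 0.59, adjusted p = 0.165; 8.52 ± 6.14 CPM in D2_CC and 25.8 ± 51.4 in D2_CS; 0 of 10 above the D2_CS mean). The D2_CS mean of Grin2c was carried by 1 failing library, D2_CS 4 at 169 CPM, and the direction turned with DESeq2 (0.33) and without the failing libraries (0.39). At an unadjusted p under 0.05, 1 member and 2853 of 36090 genes passed, and DESeq2 and limma called 0 members.

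Cocaine history alone, CS against SS, gave no member that passed in either line. Unadjusted p was under 0.05 for 1204 of 37721 genes in D1 and 1811 of 36090 in D2. In D1 0.0% of genes passed; the smallest p was that of Grin3b (-0.41 ± 0.27, adjusted p = 1.00), 0 members had an unadjusted p under 0.05, DESeq2 called 0 and limma 3, where limma called 43.9% of all genes. In D2 0.0859% passed; the smallest p was that of Grin2c (2.38 ± 0.61, adjusted p = 0.0833), with 1 member under an unadjusted 0.05, 0 called by DESeq2 and 1 by limma, where limma called 11.5% of all genes. The lines' changes had the smallest p in Grin2c (-2.32 ± 0.67, adjusted p = 0.191; 0 members passed, 1 under an unadjusted 0.05; 0.0892% of genes passed). Both Grin2c values include D2_CS 4 at 169 CPM; without the failing libraries they were 0.23 ± 0.44 and -0.36 ± 0.50 (adjusted p = 1.00 each), and the passing libraries averaged 8.06 ± 4.02 CPM in D2_CS (SD, n = 5) and 7.08 ± 3.57 in D2_SS (SD, n = 9).

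Repeated cocaine with a challenge, CC against SS, gave no member that passed either. Unadjusted p was under 0.05 for 2627 of 37721 genes in D1 and 380 of 36090 in D2. In D1, where 0.0% of genes passed, Grin1 had the smallest p (0.76 ± 0.37, adjusted p = 0.712; 187 ± 104 CPM in D1_CC and 143 ± 44.8 in D1_SS; -0.11 with limma), with 1 member under an unadjusted 0.05 and 0 called by DESeq2 or limma. In D2, also at 0.0%, Grin3b had the smallest p (0.72 ± 0.36, adjusted p = 1.00), with 0 under an unadjusted 0.05, 0 called by DESeq2 and 2 by limma, where limma called 23.3% of all genes. The difference of these changes between lines had its smallest p in Grin1 (0.87 ± 0.56, adjusted p = 0.899; 0 members under an unadjusted 0.05; 0.0% of genes passed).

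Challenged mice with and without a cocaine history were compared as CC against SC. In D1, where 10.5% of genes passed, 0 members passed. Unadjusted p was under 0.05 for 12224 of 37721 genes and for 3 of the 7 members. These were Grin2c (-0.72 ± 0.25, adjusted p = 0.0509), Grin2b (-0.85 ± 0.30, adjusted p = 0.0576) and Grin2a (-0.69 ± 0.28, adjusted p = 0.0886). DESeq2 called 1 member and limma 4, where they called 20.1% and 45.1% of all genes. With limma Grin2c stood at 0.036, the other direction. In D2, at 0.0%, Grin2a had the smallest p (-0.44 ± 0.25, adjusted p = 0.988), with 0 members under an unadjusted 0.05 and 0 called by DESeq2 or limma.

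Whether the challenge response itself differed with history was tested as (CC minus CS) minus (SC minus SS). Neither line gave a member that passed, and 0.0% of genes passed in each. In D1 Grin2c had the smallest p (-0.79 ± 0.35, adjusted p = 0.209), with 2 members and 6936 of 37721 genes under an unadjusted 0.05. In D2 it was again Grin2c (-2.03 ± 0.82, adjusted p = 0.723), with 1 member and 2146 of 36090 genes under an unadjusted 0.05. This value too includes D2_CS 4, and its direction turned with DESeq2 (0.35) and without the failing libraries (0.21). DESeq2 and limma called 0 members in both lines. Of all genes they called 7.79% and 0.0451% in D1, and 0% and 0.502% in D2. The comparisons within a line share their SS, SC, CS and CC libraries, so their values are not independent of each other.

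D1 and D2 nuclei were compared within each treatment. In the SS groups no member passed, where 0.0255% of 39250 genes did, and the smallest p was that of Grin3b (0.31 ± 0.31, adjusted p = 1.00). None had an unadjusted p under 0.05, and DESeq2 and limma called 0. The 95% interval of the log2 difference ran from -0.86 to 0.69 for Grin1, from -0.74 to 0.35 for Grin2a and from -0.92 to 0.37 for Grin2b.

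In the SC groups 1.17% of genes and 0 members passed (Grin2c 0.58 ± 0.47, adjusted p = 0.767; -0.28 with limma), with 0 members under an unadjusted 0.05, 0 called by DESeq2 and 2 by limma, where limma called 30.1% of all genes. In the CC groups 0.0204% of genes and 0 members passed by edgeR. Grin1 had the smallest p (0.78 ± 0.39, adjusted p = 0.428), with 187 ± 104 CPM in D1_CC and 120 ± 61.0 in D2_CC. Unadjusted p was under 0.05 for 1 member and for 4572 of 39250 genes. DESeq2 and limma called 0 members, where they called 2.16% and 4.93% of all genes.

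In the CS groups Grin2c passed as lower in D1, where 3.59% of genes passed and 3.55% as lower. Its level ran from 4.49 over a median of 8.83 to 19.5 CPM in D1_CS, against 0, 7.25 and 169 CPM in D2_CS. The log2 change was -2.26 ± 0.51 (n = 8 and 10; edgeR, adjusted p = 0.00416). The medians of the 2 groups lay close together, and the D2_CS mean was set by 1 library.

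That library, D2_CS 4, held 231 reads of Grin2c in 1367040 counts and failed the quality rule. Without it the log2 change was -0.07 (adjusted p = 0.930). The 2 next highest values in D2_CS were 38.0 CPM, a single read in a library of 26297 counts, and 13.0 CPM. The call was also lost with RLE scaling (-1.76 ± 0.55, adjusted p = 0.118; the median of all genes moved by 0.40), with the background subtracted (-3.01 ± 1.37, adjusted p = 0.410) and without the failing libraries (-0.21 ± 0.40, adjusted p = 0.873). With limma's library weights it stood at -0.24 ± 0.22 (adjusted p = 1.00).

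**Figure D4:**
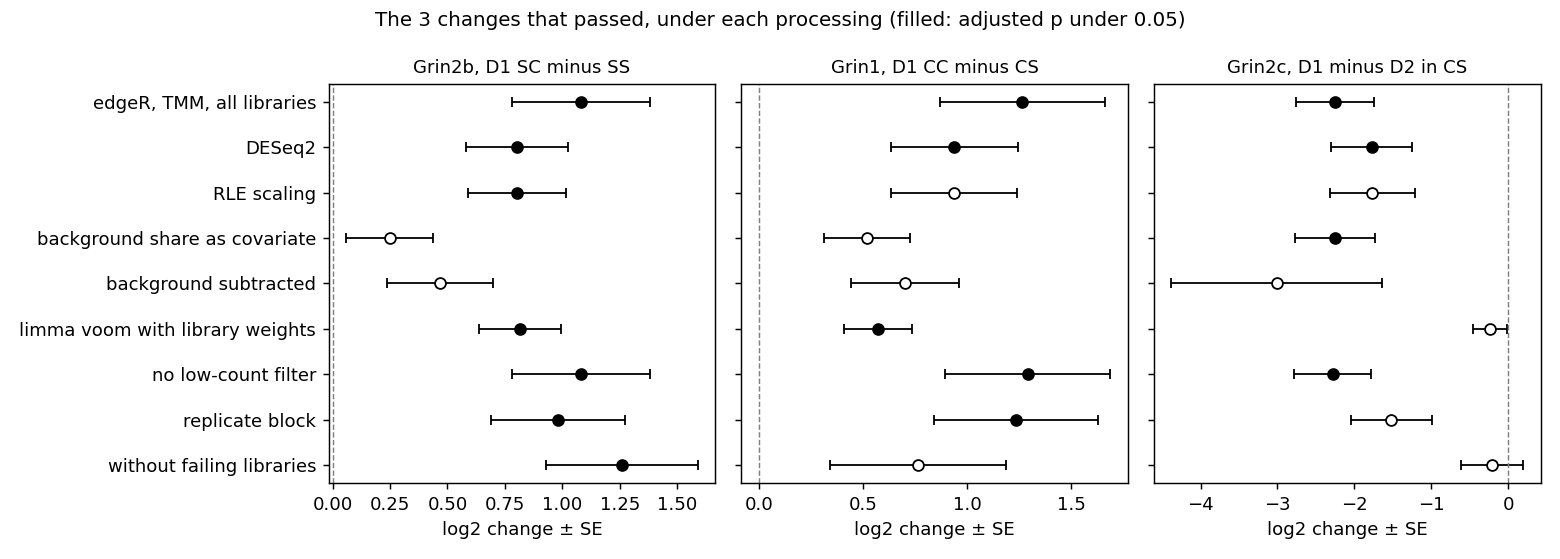
Log2 change ± SE of the 3 members that passed, under the edgeR fit and 8 alternatives (filled where the adjusted p is under 0.05). Each of the 3 loses its call with the background subtracted; Grin2b keeps it in 6 of the 8 alternatives, and Grin2c moves towards 0 without the failing libraries and with library weights.

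Genes whose products hold, move, modify or supply the receptor were read as 4 groups, 27 genes in all, each measured. In D1_SC against D1_SS 13 of 27 were higher and 0 lower (median log2 change 0.76, against -0.07 for all genes; 9.7% of all genes passed as higher and 1.64% as lower). Of 6 scaffold genes 4 were higher, among them Dlg2 (PSD-93; 6350 ± 2528 CPM in D1_SC and 3354 ± 757 in D1_SS; 1.65 ± 0.34, adjusted p = 0.00322) and Dlg1 (SAP97; 385 ± 136 CPM in D1_SC and 212 ± 34.9 in D1_SS; 1.55 ± 0.29, adjusted p = 0.00293).

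Of 7 trafficking and binding partners 4 were higher, among them Neto1, an auxiliary protein of glutamate receptors (1.42 ± 0.37, adjusted p = 0.0117), and Kif17, a kinesin that carries GluN2B (1.22 ± 0.32, adjusted p = 0.0120). Of 6 kinases and phosphatases 3 were higher, among them Camk2a, a calcium-dependent kinase that binds GluN2B (426 ± 141 CPM in D1_SC and 215 ± 38.2 in D1_SS; 1.67 ± 0.38, adjusted p = 0.00532), and Fyn, a tyrosine kinase of GluN2B (0.89 ± 0.22, adjusted p = 0.00872). Of 8 genes of co-agonist supply and removal 2 were higher: Slc6a9, the glycine transporter GlyT1 (0.67 ± 0.21, adjusted p = 0.0328), and Srr, which makes D-serine (1.19 ± 0.40, adjusted p = 0.0463). With the background share as a covariate 0 of the 27 passed (0.0053% of all genes), with the background subtracted 2 (1.03%), and without the failing libraries 7 (7.78%).

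In D1_CC against D1_CS 5 of 27 were higher and 0 lower (median 0.24, against -0.09 for all genes; 8.28% of all genes passed as higher and 0.0292% as lower). They were the kinase genes Cdk5 (1.54 ± 0.41) and Camk2b (1.32 ± 0.39), the phosphatase gene Ptpn5 (1.37 ± 0.40), the scaffold gene Dlg4, PSD-95 (1.37 ± 0.44), and the amino acid transporter gene Slc1a4 (0.75 ± 0.24), named after their values were seen. None passed without the failing libraries, with RLE scaling, with the background subtracted or with the share as a covariate. In D1_SS against D2_SS 0 of 27 passed by edgeR, DESeq2 or limma, 0 by edgeR at an unadjusted p under 0.05; Dlg4, with a log2 difference of -0.63 ± 0.44, and Neto1, with -0.68 ± 0.42, had the values farthest from 0 among the 8 named by the rule.

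Promoter windows of 250 bases before to 50 after the start were held for 4 members (Grin1, Grin2c, Grin2d and Grin3b; RefSeq, GRCm38.p6) and searched on both strands for motifs of factors with known roles in activity-dependent or basal transcription. An EGR motif (GCGGGGGCG or GCGTGGGCG) lay in the Grin1 window, 5 bases after the start, and in 3.47% of 32851 windows. An SP1 motif (GGGGCGGGG) lay in the Grin2c window, 41 bases before the start, and in 11.4% of windows. The CRE motif (TGACGTCA, 1.79% of windows) and the AP-1 motif (TGACTCA or TGAGTCA, 5.2%) were in none of the 4. The matches are shown in capitals, at chr2:25319165-25319194 and chr11:115267266-115267295 on the minus strand, because Grin1 and Grin2c are 2 of the 3 members that passed a test. A match describes these letters and no binding.
Grin1: cgcgtcaggaaGCGGGGGCGgtgggagggg
Grin2c: tggggcgggccGGGGCGGGGcggaggcgac

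The genes with patterns most like each member's over the 8 group means were found among 17923 genes in 71 libraries, by the root mean square difference of centred mean log2 CPM. For Grin2b they were Akap6 (0.0298), Macf1 (0.0441) and Usp24 (0.0461). For Grin2a they included Csad (0.0476) and Gabpb2 (0.0535), and for Grin1 Strip2 (0.0498) and Slc4a3 (0.0621). The members' own root mean square around their mean was 0.151 for Grin2b, 0.144 for Grin2a and 0.212 for Grin1. All these group means share libraries and their background shares.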

How the data were processed

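Nuclear RNA was sequenced in 75 libraries; per the labels' protocols RNA came from a Direct-zol microprep and libraries from a SMARTer stranded Pico kit. Counts were deposited by the authors as whole numbers per gene, and the authors' FPKM were the count per 1000000 counts and per 1 kb of the full gene span for 54743 of 55062 comparable identifiers (GENCODE M21). Per the submitters' processing notes, featureCounts and DESeq2 were used with build mm10; versions, aligner, annotation and strand setting are not given in the sources used here. FPKM served to read lengths and gave the densities behind the order of the members within a library and their shares of the summed density.

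The test was edgeR's quasi-likelihood test (edgeR 4.0.16, R 4.3.3; TMM, filterByExpr by group, Benjamini-Hochberg over all genes tested, threshold 0.05, two-sided). Each line's 4 groups were fitted together (37721 and 36090 genes), and all 8 for comparisons between lines (39250 genes), which gave 19 comparisons. SE was the log2 change divided by the root of the F statistic. DESeq2 1.42.0, limma 3.58.1 voom with library weights, and 6 other alternatives were run. The Grin2a to Grin2b ratio was tested by permutation (exact, or 100000 resamples where both groups had 10 libraries), in libraries with at least 10 counts of each gene. The fits were tested on simulated data: the sizes of changes were recovered, but the share of 2-fold falls that passed missed a preset bar, which was dropped after that was seen, so some real changes of this size would not pass.

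A library failed the quality rule with a total under its line's median divided by 3, over 4 scaled median absolute deviations below its line in genes with 10 or more counts or in median Spearman correlation (genes with a mean count of 10 or more), or with a log2 Drd1 to Drd2 ratio nearer to the other line, where the dividing value was halfway between the medians of both lines rather than at equal Drd1 and Drd2. All 7 members are named by group, with statistics where the adjusted p was under 0.05 and for the smallest p of each comparison; up to 2 receptor partners per role with the smallest p are named for D1 SC against SS and for D1 against D2 in SS. Further values were named after they were seen. Members, lists and tests were chosen with earlier results of these data known. Some sequences and genes that these rules gave are not reported here.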

Additional observations from a re-analysis of the deposited data

Results flagged for a closer look

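A library stood apart from the rest of its group, by Dixon's test at 95%, in 8 of 64 combinations of measure and group; chance gives about 1 in 20. Of these, 4 came from D1_CS 3, a library of 6676440 counts with a background share of 10.1%, the lowest of its group. It held the highest Grin2a (750.1 CPM, next 499.5) and Grin2b (1370 CPM, next 768) of D1_CS, the lowest Grin3a (56.5 CPM, next 106) and the lowest log2 ratio of Grin2a to Grin2b (-0.76, next -0.52).

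Grin2b was highest in D2_CC 1, at 1387 CPM against 1065 in the next library. The other 3 came from libraries that failed the quality rule. Grin2c stood at 19.5 CPM in D1_CS 7 (next 9.75) and at 169 CPM in D2_CS 4 (next 38.0). Grin3b stood at 38.0 CPM in D2_CS 6, which held 26297 counts (next 4.24). No difference between the lines in the change of a member passed its test.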

How the results depend on the processing

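Removing the low-count filter changed no call in the 19 comparisons. The number of members that passed in D1 SC minus SS was 0 with the background subtracted (1.03% of all genes) or with the background share as a covariate (0.0053%). It was 2 with limma (7.25%) or without the failing libraries (7.78%). In D1 CC minus CS it was 0 with RLE scaling, with the share as a covariate, with the background subtracted and without the failing libraries. In D1 minus D2 in CS it was 0 with RLE scaling, with the background subtracted, with limma and without the failing libraries. Where 0 passed by edgeR, limma called 3 in D1 CS minus SS (43.9% of all genes), 4 in D1 CC minus SC (45.1%), 1 in D2 SC minus SS (13.6%), 1 in D2 CS minus SS (11.5%), 2 in D2 CC minus SS (23.3%) and 2 in D1 minus D2 in SC (30.1%). DESeq2 and RLE scaling called 1 each in D1 CC minus SC (20.1% and 10.7% of all genes). The share as a covariate called 2 there (18.7%), 1 in the D1 interaction (7.14%) and 1 in D1 minus D2 in CC (5.31%). Leaving out 1 library gave 0 to 2 members in D1 SC minus SS, 0 to 1 in D1 CC minus CS and 0 to 3 in D1 minus D2 in CS, with log2 changes of 0.64 to 1.19 for Grin2b, 0.87 to 1.62 for Grin1 and -2.42 to -0.07 for Grin2c.

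Directions turned with limma for Grin1 in D1 CC minus SS (-0.11) and for Grin2c in D1 CC minus SC (0.036) and D1 minus D2 in SC (-0.28). For Grin2c they turned in D2 CC minus CS with DESeq2 (0.33) and without the failing libraries (0.39), and in the D2 interaction with DESeq2 (0.35) and without the failing libraries (0.21). With the background subtracted the Grin2a to Grin2b ratio turned in D1 CS minus SS (-0.060) and D2 CC minus SS (0.021). Without the failing libraries its 2 calls were lost, at -0.20 and -0.18. Leaving out 1 library, an alternative chosen after seeing the data, kept both, at -0.44 to -0.29 and -0.49 to -0.34; the causes were not tested. Replicate numbers of the labels did not pair libraries (median correlation of same-numbered libraries -0.01 in D1 and 0.02 in D2; 7 of 37 and 2 of 38 correlated best with their own number). With the replicate block Grin2b stood at 0.98 (adjusted p = 0.0452) and Grin1 at 1.24 (adjusted p = 0.0481), while D1 minus D2 in CS had 0 members (Grin2c -1.52, adjusted p = 0.0928). Background and the spread of depth limit what these libraries show for Grin2c, Grin2d, Grin3a and Grin3b.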
